A study of Mus musculus with 6 samples.

Results

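The genes described are 7 integrin chains, Itgav, Itga5 and Itga8 of the alpha kind and Itgb3, Itgb5, Itgb6 and Itgb8 of the beta kind, which build the receptors for the short Arg-Gly-Asp (RGD) stretch of matrix proteins. They were chosen by symbol, and all 7 were found among the 23337 gene rows of the count tables. RNA was sequenced from fibroblasts cultured from the stroma of the mouse mammary gland, with 3 libraries from Sharpin-cpdm animals (cpdm/cpdm, SHARPIN deficient) and 3 from wild-type animals (wt/wt), all of strain C57BL/KaLawRij and 7 weeks old. Each library pooled the glands of 3 mice, and the cells were grown at passage 0 in serum until confluent, so the values describe cultured cells and not the gland. Gene counts per library came to between 13570649 and 15656196.

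An integrin is a pair of 1 alpha and 1 beta chain that spans the cell membrane, holding matrix outside the cell and the actin cytoskeleton inside it. The chain αv pairs with β1, β3, β5, β6 and β8, while α5 and α8 pair with β1 alone. Integrin α5β1 is the main fibronectin receptor of fibroblasts, αvβ3 and αvβ5 bind vitronectin and other RGD proteins, and αvβ6 and αvβ8 are known for releasing TGF-beta from its latent complex. SHARPIN, known from the complex that builds linear ubiquitin chains, also binds the alpha chains on their cytoplasmic side, next to the membrane, and keeps integrins inactive there. The title of the series names collagen and duct invasion as its setting, and the comparison asks whether transcripts of these receptors differ when SHARPIN is missing.

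The coding stretch of that part of the alpha tail is shown because SHARPIN is known to bind there. It was searched for in the last 150 coding bases of 21670 mouse coding genes (longest coding sequence of each, GENCODE M21 on mm10, sense strand, in frame), as a codon starting with GG followed by 2 codons that are each TTC or TTT. It was found in 145 genes, which is 0.669% of them, and in 13 of the 18 integrin alpha genes searched. Capitals mark these 9 bases, with 18 bases on each side, 5′ to 3′.
Itgav: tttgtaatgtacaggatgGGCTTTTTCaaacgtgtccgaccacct
Itga5: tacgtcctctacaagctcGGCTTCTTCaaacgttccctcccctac
Itga8: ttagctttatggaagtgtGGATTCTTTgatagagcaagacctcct
The capitals begin at coding base 3043 of 3132 in Itgav, 3082 of 3159 in Itga5 and 3106 of 3186 in Itga8. Itgav and Itga5 share 8 of the 9 bases, Itga5 and Itga8 share 7, and Itgav and Itga8 share 6. Over the 45 bases printed, 28 are the same in Itgav and Itga5, 23 in Itgav and Itga8 and 19 in Itga5 and Itga8.

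Levels are given in CPM (the count of a gene per 1000000 gene counts of its library), and between genes in CPM per kilobase of merged exon. Genotypes were compared with edgeR's quasi-likelihood test over 13442 genes that passed a low-count filter, with Benjamini-Hochberg adjustment over all of them and a threshold of 0.05. All 7 members passed the filter. The libraries of the 2 genotypes carry the numbers 1 to 3, and same-numbered libraries deviated from their group means together, so the test was also run with the number as a block. Without the block 0 of 13442 genes, 0% of them, were called, and 2.28% had an unadjusted p under 0.05; limma-voom called 0 and DESeq2 10. With the block 2.51% were called, 2.11% lower and 0.394% higher in Sharpin-cpdm, and 17.3% had an unadjusted p under 0.05. The fit without the block was planned as the main test and the blocked fit as its alternative. In what follows, a gene rose or fell where the blocked edgeR fit called it. No member passed without the block.

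Sharpin itself had 10.5, 9.13 and 9.51 CPM in Sharpin-cpdm libraries 1 to 3, against 24.5, 25.2 and 31.2 CPM in wild-type libraries 1 to 3. Every mutant library was below every wild-type library. The fitted log2 fold change of Sharpin was -1.48 ± 0.12 with the block (SE, n = 3 per group; edgeR, adjusted p = 0.00598) and -1.49 ± 0.14 without it (adjusted p = 0.272).

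Of the 7 members, Itgb3 fell, 0 rose and 6 did not pass. That is 1 of 7 called lower, where 2.11% of all tested genes were. At an unadjusted p under 0.05 in edgeR there were 2 of 7 members with the block, Itgb3 and Itga5, where 17.3% of all tested genes were, and 1 without it, Itgb3, where 2.28% were. The median log2 fold change of the 7 was -0.05 with the block, beside -0.00157 for all tested genes. Itgb3 and Itga8, 2 of 7, were lower in all 3 same-numbered pairs, and 3 of 7 were higher in all 3 pairs, Itgav, Itga5 and Itgb8. Over all tested genes 18.5% were lower and 22.7% higher in all 3 pairs. CPM ranges of the genotypes did not overlap for 1 member, Itgb3, which was lower; among all tested genes 2.59% had such ranges lower and 3.35% higher.

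**Figure D1:**
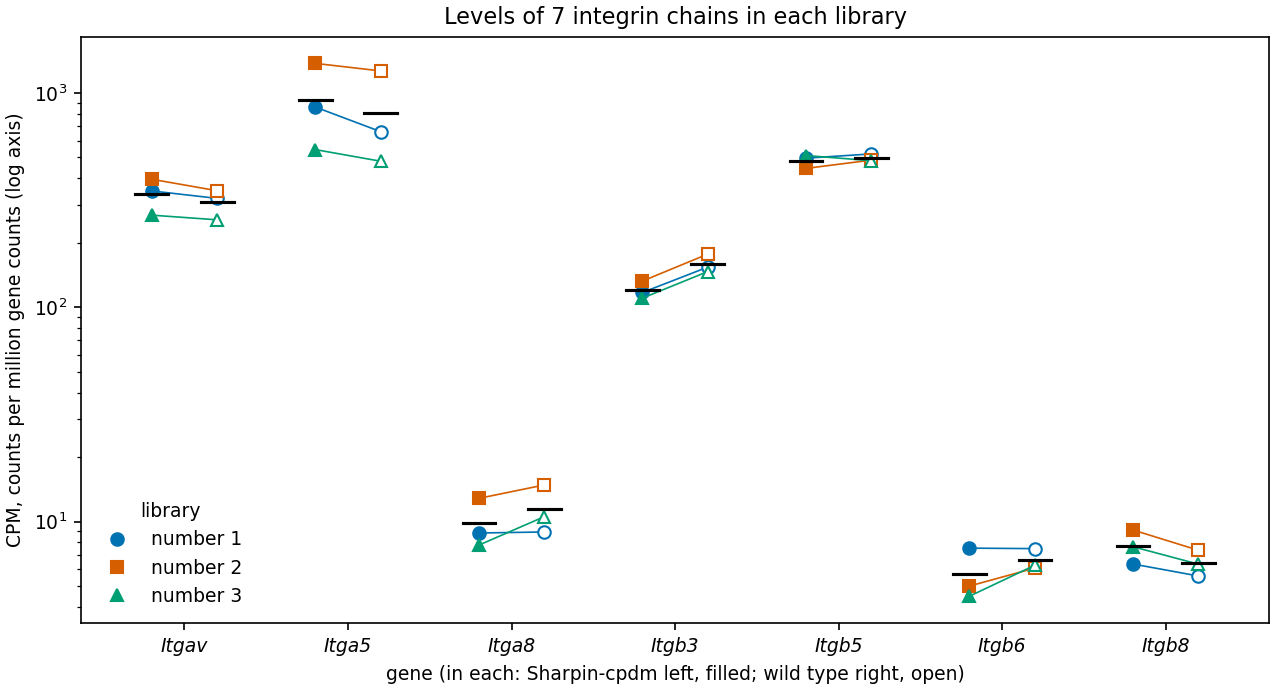
CPM of the 7 integrin chains (log axis) in each library, with Sharpin-cpdm filled on the left and wild type open on the right of each gene, lines joining same-numbered libraries and bars at the group means. Itgb3 sits at 110.3 to 132.5 CPM in Sharpin-cpdm cells and 146.8 to 177.1 CPM in wild-type cells, and the Itga5 points spread mainly by library number.

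Of the alpha chains, Itga5 (ENSMUSG00000000555.8, chromosome 15, 103344286 to 103366763, minus strand, mm10), the ligand-binding partner of β1 in the fibronectin receptor, had 859.4, 1374 and 544.2 CPM in Sharpin-cpdm libraries 1 to 3, against 659.6, 1267 and 480.1 CPM in wild-type libraries 1 to 3. Library 2 was highest and library 3 lowest in both genotypes, and the groups overlapped widely. Within same-numbered libraries the log2 ratio of Sharpin-cpdm to wild type was 0.38, 0.12 and 0.18. The fitted log2 fold change was 0.22 ± 0.06 with the block (SE, n = 3 per group; edgeR, adjusted p = 0.145) and 0.20 ± 0.47 without it. The mean of pair 2 was 2.58 times that of pair 3, whereas the mean of Sharpin-cpdm was 1.15 times that of wild type.

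Itgav (ENSMUSG00000027087.11, chromosome 2, 83724397 to 83806916, plus strand), the alpha chain shared by the vitronectin and TGF-beta-releasing receptors, had 349.0, 395.7 and 269.0 CPM in Sharpin-cpdm libraries 1 to 3, against 322.1, 349.7 and 255.9 CPM in wild-type libraries 1 to 3. Its order over the libraries was that of Itga5, 2 above 1 above 3 in both genotypes, over a narrower span of 1.42 times between pair means. The log2 ratio was 0.12, 0.18 and 0.07 in pairs 1 to 3, and the fitted value with the block was 0.11 ± 0.05 (adjusted p = 0.306 in edgeR's test). An annotated transcript on the opposite strand, Gm13684, overlaps 5.9% of its merged exon bases. It has no row of its own in the tables, so its reads would not have been set apart.

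Itga8 (ENSMUSG00000026768.10, chromosome 2, 12106632 to 12301922, minus strand), a β1 partner that binds nephronectin and is known from smooth muscle and kidney mesenchyme, was scarce. Its counts were 120, 177 and 116 in Sharpin-cpdm libraries 1 to 3, or 8.84, 12.8 and 7.76 CPM, against 122, 232 and 150 in wild-type libraries 1 to 3, or 8.94, 14.8 and 10.5 CPM. Library 2 was again the highest in both genotypes. The log2 ratio was -0.02, -0.21 and -0.44 in pairs 1 to 3, so that its size differed widely between pairs, and the fitted value with the block was -0.23 ± 0.12 (adjusted p = 0.405 in edgeR's test). The antisense gene E030013I19Rik overlaps 5.05% of its exon bases, and the library kit did not mark strand.

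Among the beta chains, Itgb3 (ENSMUSG00000020689.4, chromosome 11, 104608000 to 104670476, plus strand) was the member that fell. It encodes β3, which pairs with αv in mesenchymal, endothelial and bone-resorbing cells and with αIIb on platelets. Counts were 1591, 1828 and 1648 in Sharpin-cpdm libraries 1 to 3, or 117.2, 132.5 and 110.3 CPM, against 2101, 2773 and 2088 in wild-type libraries 1 to 3, or 154.0, 177.1 and 146.8 CPM. Every Sharpin-cpdm library was below every wild-type library, and library 2 was the highest of each group. The groups averaged 120 ± 11.3 CPM in Sharpin-cpdm cells and 159 ± 15.9 CPM in wild-type cells (SD, n = 3 each), a ratio of 0.753.

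The drop in Itgb3 was nearly the same in each pair, with log2 ratios of -0.39, -0.42 and -0.41 in pairs 1 to 3. With the block the fitted log2 value was -0.42 ± 0.04 (SE, n = 3 per group, adjusted p = 0.0103 in edgeR's test). Without the block it was -0.42 ± 0.13, with an unadjusted p of 0.0164 that became 1.0 after edgeR's adjustment. The call was lost without pair 2 or pair 3. The adjusted p of the blocked edgeR fit was 0.00467 without pair 1, 0.0566 without pair 2 and 0.0664 without pair 3. The fitted log2 value hardly moved, at -0.43, -0.43 and -0.40 in these fits. The genes called among all tested in them numbered 653, 128 and 44. No annotated gene overlaps its exons.

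Summed markers of several cell types were lower in Sharpin-cpdm within every pair, as Itgb3 was, whereas macrophage and epithelial sums went both ways. Endothelial cells, macrophages and platelets also make Itgb3. In a bulk culture fewer cells of a type and less RNA per cell cannot be told apart. Of 12 endothelial markers 10 fell and 0 rose, with a median log2 fold change of -0.77. Beside the marker counts here and below, 2.11% of all tested genes fell and 0.394% rose. With the block 17.3% of them had an unadjusted p under 0.05 in edgeR's test. Their summed level was 525 to 773 CPM in Sharpin-cpdm cells and 687 to 1210 CPM in wild-type cells, with none at a count of 0. The log2 ratio of that sum was -0.39, -0.77 and -0.64 in pairs 1 to 3, beside -0.39, -0.42 and -0.41 for Itgb3. Their part in the Itgb3 result was not tested.

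Of 8 macrophage markers 7 were tested and 0 called by edgeR (1 with the block had an unadjusted p under 0.05), at a summed 125 to 317 CPM in Sharpin-cpdm cells and 64.4 to 371 CPM in wild-type cells. The log2 ratio of that sum was 0.95, -0.23 and 0.31 in pairs 1 to 3. Of 4 platelet markers Gp9 had a count of 0 in all libraries and the sum was 5.75 to 19.6 CPM in Sharpin-cpdm cells and 6.3 to 36.2 CPM in wild-type cells, with 0 of 2 tested called by edgeR (2 with the block had an unadjusted p under 0.05). The log2 ratio of the platelet sum was -0.13, -0.89 and -0.72 within pairs. Of 8 pericyte markers 3 fell and 0 rose, with sums of 774 to 1050 CPM in Sharpin-cpdm cells and 907 to 1240 CPM in wild-type cells, and log2 ratios of -0.48, -0.13 and -0.23 within pairs. Of 5 adipocyte markers Lep was at a count of 0 throughout, 1 was tested and fell (Fabp4, also made by endothelial cells), and the sum was 22.9 to 43.9 CPM in Sharpin-cpdm cells and 39.8 to 83.2 CPM in wild-type cells, with log2 ratios of -0.80, -1.02 and -0.92 within pairs. The 10 fibroblast markers summed to 58800 to 73600 CPM in Sharpin-cpdm cells and 61900 to 83800 CPM in wild-type cells, far above every other marker list; 3 of them fell and 0 rose, and the log2 ratio of the sum was -0.13, -0.07 and -0.19 within pairs. The platelet, pericyte, adipocyte and fibroblast sums were thus lower in the mutant in all 3 pairs, as Itgb3 was. Sums weigh abundant genes most: the adipocyte sum was nearly all Fabp4 and the platelet sum mostly Pf4. With the block 8 fibroblast markers lay below 0 and 2 above, with Col3a1 at -0.395, Col1a1 at -0.03 and Vim at 0.13. Of the pericyte markers 7 lay below 0 and 1 above, and within pairs Des had log2 ratios of -0.72, 0.04 and 0.27. The part of these sums in the Itgb3 result was not tested.

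Itgb5 (ENSMUSG00000022817.15, chromosome 16, 33829665 to 33949338, plus strand), whose product forms αvβ5, a vitronectin receptor, was the steadiest member. It had 496.1, 444.6 and 510.4 CPM in Sharpin-cpdm libraries 1 to 3, against 519.5, 486.0 and 483.1 CPM in wild-type libraries 1 to 3. The log2 ratios of -0.07, -0.13 and 0.08 lay on both sides of 0. Its fitted value was -0.05 ± 0.05 with the block (adjusted p = 0.645 in edgeR's test), and the SD of its log2 CPM over the 6 libraries was 0.0541, beside 0.275 for Itgb3 and 0.655 for Itga5.

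The remaining beta chains, those of the TGF-beta-releasing receptors, were scarce. Itgb6 (ENSMUSG00000026971.15, chromosome 2, 60598292 to 60722643, minus strand), a chain of epithelial cells, had counts of 102, 69 and 67 in Sharpin-cpdm libraries 1 to 3, against 102, 95 and 89 in wild-type libraries 1 to 3. These are 7.52, 5.001 and 4.49 CPM in Sharpin-cpdm, against 7.48, 6.07 and 6.26 CPM in wild type. Its log2 ratios were 0.01, -0.28 and -0.48, and the fitted value with the block was -0.25 ± 0.15 (adjusted p = 0.473 in edgeR's test). Epithelial markers were measured in the same libraries: their sum was 409, 328 and 178 CPM in Sharpin-cpdm libraries 1 to 3, against 283, 526 and 356 CPM in wild-type libraries 1 to 3. The log2 ratios of that sum were 0.53, -0.68 and -1.0 in pairs 1 to 3, with 0 of 9 markers at a count of 0 in all libraries and 0 of the 8 tested called in either direction by edgeR (1 with the block had an unadjusted p under 0.05). Their part in the Itgb6 values was not tested.

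Itgb8 (ENSMUSG00000025321.14, chromosome 12, 119158022 to 119238802, minus strand) had counts of 86, 126 and 114 in Sharpin-cpdm libraries 1 to 3, or 6.34, 9.13 and 7.63 CPM. Its wild-type counts were 76, 115 and 90, or 5.57, 7.35 and 6.33 CPM. Within pairs the mutant was the higher each time, by log2 ratios of 0.19, 0.31 and 0.27, while the ranges of the groups overlapped. The fitted value of 0.25 ± 0.12 with the block did not pass (adjusted p = 0.368, edgeR).

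**Figure D2:**
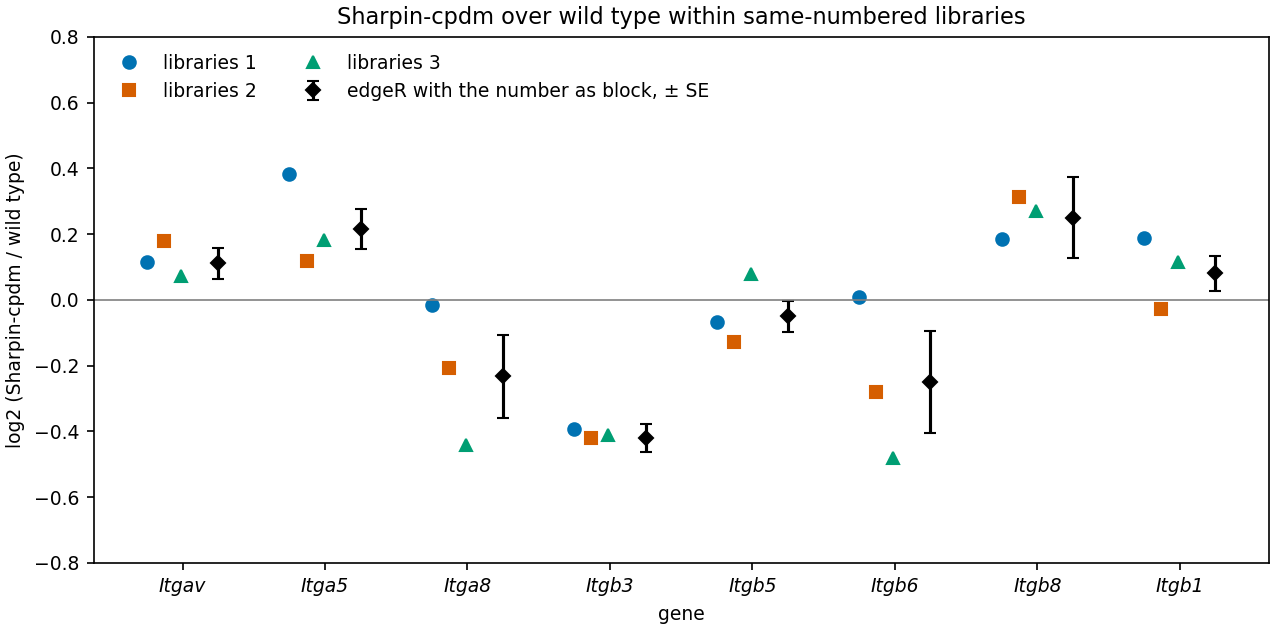
Log2 ratio of Sharpin-cpdm to wild-type CPM within same-numbered libraries (coloured points) and the log2 fold change of edgeR's fit with the number as a block (diamond, ± SE), for the 7 chains and their partner Itgb1. The 3 Itgb3 points lie between -0.42 and -0.39, whereas those of Itga8 and Itgb6 run down to -0.44 and -0.48.

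Scaled by length, Itga5 and Itgb5 were the most abundant of the 7 and Itgb6 and Itgb8 the least. Over the 6 libraries Itga5 ran from 97.3 to 278 CPM per kilobase with a median of 154, and Itgb5 from 125 to 146 with a median of 138. The order of these neighbours was not settled, since Itga5 was above Itgb5 in 3 of 6 libraries. Itgav followed at 23.8 to 36.8 CPM per kilobase and Itgb3 at 18.7 to 30.01, with Itgav the higher in 5 of 6 libraries. Itgb3 was above Itga8 in all 6, at 1.05 to 2.01, with no overlap. Itga8 was above Itgb6 (0.631 to 1.06) in all 6 libraries, though their ranges met, and Itgb6 was above Itgb8 (0.504 to 0.826) in 4 of 6. The common partner Itgb1, at 486 to 795 CPM per kilobase, exceeded every member. Lengths are those of all annotated exons, and the transcripts in these cells may be shorter.

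Itgb1, whose product also pairs with αv, was left out of the shares, though at 486 to 795 CPM per kilobase it exceeded every member. Among the 4 beta members, Itgb5 made up most of the length-scaled transcripts. Itgb5 held 86.1% ± 1.98 of their sum in Sharpin-cpdm and 83.0% ± 1.55 in wild type (SD, n = 3 each). Itgb3 held 12.3%, 15.1% and 11.4% in Sharpin-cpdm libraries 1 to 3, against 15.0%, 17.8% and 15.3% in wild-type libraries 1 to 3. The highest mutant share was thus just above the lowest wild-type share, while each pair had the lower value in the mutant. Itgb6 and Itgb8 held little, at 0.504% and 0.444% in Sharpin-cpdm and 0.551% and 0.346% in wild type. Of the alpha chains, Itga5 held 84.2% ± 3.5 in Sharpin-cpdm and 82.9% ± 4.64 in wild type, a difference smaller than the spread between libraries.

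**Figure D3:**
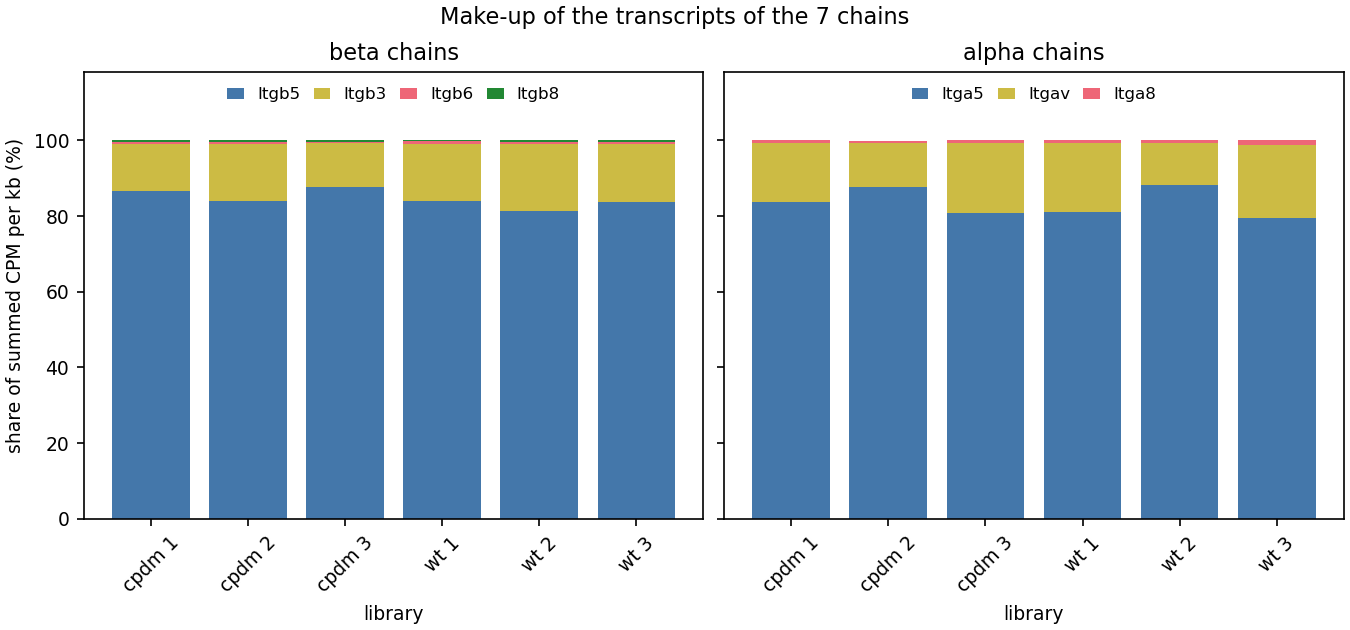
Share of each chain in the summed CPM per kilobase (%) of the 4 beta members (left, Itgb1 left out) and the 3 alpha members (right) in each library. Itgb3 takes 11.4% to 15.1% of the beta sum in Sharpin-cpdm and 15.0% to 17.8% in wild type, and Itga5 takes 79.4% to 88.1% of the alpha sum over all libraries.

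Whether Itgb3 moved apart from its partner Itgav, or from Itgb5, whose product also pairs with αv, was tested on ratios within each library. Such ratios do not depend on scaling. The log2 ratio of Itgb3 to Itgav counts was -1.57, -1.58 and -1.29 in Sharpin-cpdm libraries 1 to 3, against -1.06, -0.98 and -0.80 in wild-type libraries 1 to 3. The groups did not overlap, and the difference of -0.53 had an exact two-sided permutation p of 0.1, the smallest that 3 against 3 can give (0.3 adjusted over the 3 ratios tested). Within pairs it was -0.51, -0.60 and -0.48 (exact sign-flip p = 0.25, again the smallest possible).

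Itgb3 against Itgb5 gave -2.08, -1.75 and -2.21 in Sharpin-cpdm libraries 1 to 3, and -1.75, -1.46 and -1.72 in wild-type libraries 1 to 3. The difference of -0.37 had an exact permutation p of 0.2 (0.3 adjusted), and it was -0.33, -0.29 and -0.49 within pairs. The ratio of Itga5 to Itgav differed by 0.10 with an exact permutation p of 0.8 (0.8 adjusted), and by 0.27, -0.06 and 0.11 within pairs. With 3 libraries per genotype these tests cannot reach 0.05.

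The profile over the 6 libraries was compared with that of 10368 tested genes with a mean of at least 5 CPM, predicted and clone-named genes left out, by the root mean square difference of log2 CPM centred on each gene's mean. Nearest to Itgb3 were Nid2, which encodes the basement membrane protein nidogen-2, Ece1, which encodes an endothelin-converting enzyme, and Kazn, at 0.0507, 0.0794 and 0.0818. Nid2 had 83.0, 88.9 and 82.0 CPM in Sharpin-cpdm libraries 1 to 3, against 111, 120 and 102 CPM in wild-type libraries 1 to 3. Nearest to Itga5 were Fam38b, a former symbol of the stretch-gated channel gene Piezo2, the kinase gene Nuak2 and the tropomyosin gene Tpm1, at 0.045 to 0.0678. Tpm1 had 1990, 3250 and 1400 CPM in Sharpin-cpdm libraries 1 to 3, against 1630, 2950 and 1070 CPM in wild-type libraries 1 to 3, so that library 2 was the highest of each genotype as for Itga5. Since these genes were picked for their likeness over all 6 libraries, their direction between genotypes follows from the choice. Nearest to Itga8 were Phactr1, Bambi, a decoy receptor of TGF-beta family ligands, and Tspan2, at 0.0586 to 0.0699. These distances describe 6 libraries only.

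**Figure D4:**
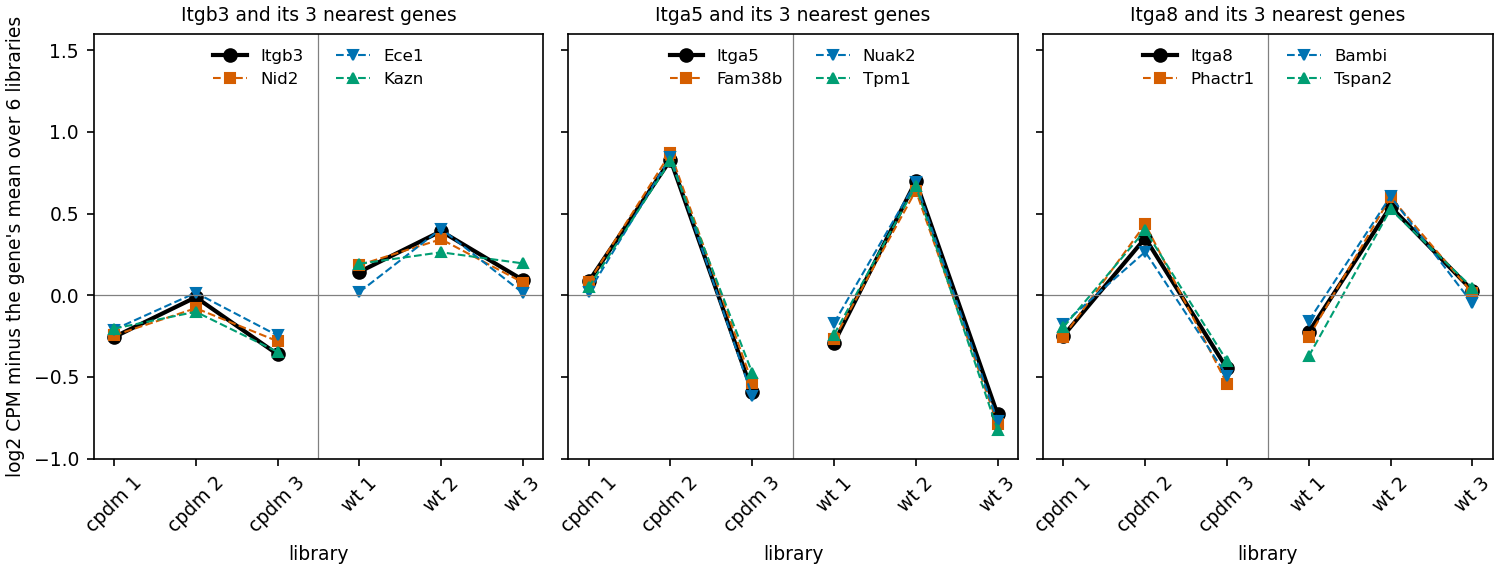
Log2 CPM minus each gene's mean over the 6 libraries for Itgb3, Itga5 and Itga8 (black) and the 3 genes nearest to each in profile, with Sharpin-cpdm libraries left and wild-type libraries right of the grey line; lines only guide the eye. Itgb3 and its neighbours are lower in Sharpin-cpdm, whereas Itga5 and its neighbours peak in library 2 of both genotypes.

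The partner that αv, α5 and α8 share, Itgb1, had 2354, 3182 and 2146 CPM in Sharpin-cpdm libraries 1 to 3, against 2065, 3245 and 1981 CPM in wild-type libraries 1 to 3. It followed library number as Itga5 did, and its log2 fold change with the block was 0.08 ± 0.05 (adjusted p = 0.5 in edgeR's test). Of the 19 other integrin chains, Itgb1 among them, 16 were tested and 0 were called in either direction by edgeR (5 with the block had an unadjusted p under 0.05, as had 17.3% of all tested genes), with 11 below 0 and 5 above 0 and a median log2 fold change of -0.06. Ranges that did not overlap were lower for 3 and higher for 0 of the 16, where 2.59% of all tested genes had them lower. The most abundant after Itgb1 were the collagen-binding Itga11, the laminin-binding Itga7 and the tenascin-binding Itga9, at -0.05, -0.08 and -0.01. Itga6, a laminin-binding chain named after its values were seen, had groups that did not overlap, with 43.9, 46.2 and 47.5 CPM in Sharpin-cpdm libraries 1 to 3 against 58.1, 53.8 and 58.1 CPM in wild-type libraries 1 to 3. Its log2 fold change of -0.32 ± 0.06 with the block missed the threshold narrowly (adjusted p = 0.05 after rounding, edgeR).

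The genes for ligands of these receptors differed widely in level, from a mean of 3.61 CPM for Vtn, vitronectin, to 9450 CPM for Fn1. Of 15 genes for RGD proteins and other ligands of αv integrins, edgeR called 0 higher and 0 lower. With the block 9 lay above 0 and 6 below, and the median log2 fold change was 0.05. In that fit 8 had an unadjusted p under 0.05, as had 17.3% of all tested genes. Among these 8, Fn1, Postn, Thbs1, Spp1 and Edil3 lay above 0, and Vtn, Mfge8 and Fbln5 below. The last named were lower in the mutant in every same-numbered pair. Their log2 fold changes were -0.60 ± 0.21, -0.14 ± 0.04 and -0.10 ± 0.04 (adjusted p = 0.214, 0.148 and 0.288 in the blocked edgeR fit). Fn1, which encodes fibronectin, had 9493, 12250 and 9897 CPM in Sharpin-cpdm libraries 1 to 3, against 8519, 9399 and 7144 CPM in wild-type libraries 1 to 3, with a log2 fold change of 0.33 ± 0.07 with the block (adjusted p = 0.0707 in edgeR's test). Postn, periostin, a ligand of αvβ3 and αvβ5, had 7589, 6996 and 7981 CPM in Sharpin-cpdm libraries 1 to 3, against 6444, 6269 and 6045 CPM in wild-type libraries 1 to 3 (0.25 ± 0.05, adjusted p = 0.0783, edgeR).

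Both genes had every mutant library above every wild-type library, as did Edil3, a secreted RGD protein named after its values were seen, with 25.5, 30.4 and 30.1 CPM in Sharpin-cpdm libraries 1 to 3 against 17.2, 23.5 and 14.5 CPM in wild-type libraries 1 to 3 (0.64 ± 0.12, adjusted p = 0.0583 in the blocked edgeR fit). In sum, 3 of 15 tested ligands had such ranges higher and 0 lower, where 3.35% of all tested genes had them higher. DESeq2 with the block called these 3 and Thbs1, while edgeR's test called none in either fit. Thbs1, thrombospondin-1, had 0.36 ± 0.09 (adjusted p = 0.112 in the blocked edgeR fit), and Tnc, tenascin-C, had 0.00 ± 0.07 (adjusted p = 0.999). Both varied with library number, Thbs1 from 3334 to 9012 CPM within Sharpin-cpdm and from 2110 to 8228 CPM within wild type.

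Of 6 genes for the RGD-bearing latent TGF-beta forms and the proteins that hold them, 1 fell and 0 rose, where 2.11% of all tested genes fell. At an unadjusted p under 0.05 in the blocked edgeR fit there were 2 of 6, Nrros and Ltbp1, where 17.3% of all tested genes were. Ltbp1 had -0.31 ± 0.09 with the block (adjusted p = 0.174 in edgeR's test). Nrros, counted under its older symbol Lrrc33, tethers latent TGF-beta on macrophages and microglia. It had 4.05, 8.19 and 5.96 CPM in Sharpin-cpdm libraries 1 to 3, against 7.04, 13.4 and 10.3 CPM in wild-type libraries 1 to 3, with a log2 fold change of -0.77 ± 0.12 with the block (adjusted p = 0.0293 in edgeR's test). The groups overlapped, and each pair had the lower value in the mutant, by -0.80, -0.71 and -0.80 on the log2 scale. Nrros was not called without the block, nor with it when pair 2 or pair 3 was left out. Its level was near those of the scarce Itga8, Itgb6 and Itgb8. The macrophage sum went both ways, with log2 ratios of 0.95, -0.23 and 0.31 in pairs 1 to 3, and its part in the Nrros values was not tested. Tgfb1, Tgfb3, Ltbp3 and Lrrc32, the most abundant of the list, had log2 fold changes of -0.08, 0.05, 0.01 and -0.02. Lrrc32, the tether also called GARP, stood at 707 to 753 CPM in Sharpin-cpdm cells and 705 to 801 CPM in wild-type cells.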

How the data were processed

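The values are raw counts as the authors deposited them, 1 table for each library. Its 23337 gene rows were used and the 5 summary rows kept out. The tools named, per the submitters' processing notes, are HTSeq 0.5.4p3, TopHat2 2.0.10 and bcl2fastq 1.8.4, and the build is mm10. Strand setting and annotation are not given in the sources used here, and the library kit does not mark strand. Between 0.831 and 0.923 non-unique alignments were recorded per gene count, and such reads are missing from gene counts.

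The 7 members and the 10 gene lists were chosen with earlier results of these data known. Named genes are the members, Itgb1, Sharpin, the genes of the ligand, latent TGF-beta and integrin lists called in either fit and the 4 most abundant of each, and the 3 genes nearest in profile to Itgb3 and to the 2 other members with the largest SD. Edil3, Fbln5, Fbn2, Itga1, Itga3, Itga6, Ltbp1, Mfge8, Spp1 and Vtn fall outside this rule and were named after their values were seen. So were the markers Col1a1, Col3a1, Des, Fabp4, Pf4 and Vim. Counts were fitted with edgeR 4.0.16 in R 4.3.3 (filterByExpr, TMM factors of 0.969 to 1.03, glmQLFTest, two-sided), with limma 3.58.1 and DESeq2 1.42.0 as alternatives. SE is the log2 fold change over the square root of F. Ratios were tested by exact permutation with scipy 1.17.1. The edgeR fits were tested on simulated data.

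Deviations of log2 CPM (prior count 2) from group means correlated at 0.457, 0.809 and 0.737 for libraries of the same number, across genes, which are not independent replicates. Other combinations gave -0.691 to 0.00677. Deviations cancel within a group, so positive values for the same number bring negative ones elsewhere by construction. All 3 same-number values exceed 0.1, and libraries were therefore treated as paired by number. This comes from the data, as the labels do not say what a number marks. Replicate libraries differed beyond sampling noise (chi-square per degree of freedom 16.9 to 85.2). Replicates are separate pools of mice.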

Additional observations from a re-analysis of the deposited data

How the results depend on the processing

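Itgb3 stayed lower in all 19 alternatives, at -0.52 to -0.32, with adjusted p between 0.000483 and 1.0; Itgb5, Itgb6 and Itgb8 also kept their direction in all 19. Itgb3 was called, as the 1 member, in the 5 fits with the replicate block on all libraries (-0.42 in edgeR), and without pair 1, but in no fit without the block. The signs of the others turned only where a single library was left out without the block, which leaves the library numbers unbalanced. There Itga5 ran from -0.23 (without Sharpin-cpdm library 2, and -0.06 without wild-type library 3) to 0.72. Itgav ran from -0.0376 (without Sharpin-cpdm library 2) to 0.27, and Itga8 from -0.50 to 0.0177 (without wild-type library 2). With the block the signs held whichever pair was left out. Itga5 then had 0.13 to 0.26, Itgav 0.07 to 0.15 and Itga8 -0.32 to -0.12.

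With the replicate block 337 genes were called against 0 without it, and 336, 365, 341 and 379 with RLE factors, count totals, DESeq2 and limma-voom added to the block, settings chosen after seeing the data. DESeq2 without the block called 10. Leaving out a library without the block gave 0, and leaving out a pair with it 44 to 653 (128 without pair 2); over both, members called were 0 to 1, ligands 0 to 3 (Edil3, Fbn2 and Fn1 without pair 1), latent TGF-beta genes 0 to 1 and other integrins 0 to 2 (Itga1 and Itga3 without pair 1). Ligands numbered 4 with DESeq2 and the block, and other integrins 1 (Itga6) with count totals and the block. Nrros was called in 4 of these 5 fits with the block, as the 1 latent TGF-beta gene.

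For the ratios, the replicate block leaves the mean difference as it is by construction and changes only the p. Leaving out single libraries gave differences of -0.50 to -0.27 for Itgb3 to Itgb5, -0.63 to -0.46 for Itgb3 to Itgav and -0.11 to 0.40 for Itga5 to Itgav. Counts of 67 to 232 limit what can be said of Itga8, Itgb6 and Itgb8.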
